A study of Mus musculus with 4 samples.

Results

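The glutamate receptor genes described here are the AMPA (Gria), NMDA (Grin), kainate (Grik), delta (Grid) and metabotropic (Grm) receptor subunits, together with the families that hold their auxiliary subunits, the TARPs and related gamma subunits (Cacng), the cornichons (Cnih) and the Shisa proteins. Members were chosen by gene name alone, as every row of a table of polyA sites whose name began with 1 of these family names and a number. This gave 46 of 9297 sites and 28 of 7202 gene names. Of 46 genes of these families in the GENCODE vM21 annotation, the other 18 were not analysed here under their own names. The name pattern also takes in Cacng1, a subunit of the muscle calcium channel, and Cnih1, Shisa2 and Shisa5, which are not known as receptor subunits.

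Neuropil microdissected out of area CA1 of the mouse hippocampus gave 4 cTag-PAPERCLIP libraries, which formed a single group. The mice were C57BL/6 and had the genotype Camk2a-Cre x Pabpc1- cTag, in which Cre expressed from the Camk2a promoter in forebrain excitatory neurons switches on a GFP tag on Pabpc1, a protein that binds polyA tails. The tissue of several adult mice was pooled for each replicate, and RNA crosslinked to the tagged protein was sequenced as short tags that mark the 3′ ends of mRNAs. The neuropil holds dendrites of the pyramidal neurons beside axons and glia, so tagged RNA from the neuropil was taken to come mainly from dendrites.

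Fast excitation in CA1 runs through AMPA receptors, tetramers of the Gria subunits that open when glutamate binds. NMDA receptors, built from the obligatory subunit Grin1 and a Grin2 subunit, admit calcium and trigger synaptic plasticity, while kainate and metabotropic receptors tune release and excitability. TARPs and cornichons are small membrane proteins that help AMPA receptors to leave the endoplasmic reticulum and slow their closing. Several receptor mRNAs are known to be carried into dendrites, where the 3′ end chosen at polyadenylation sets which 3′UTR the mRNA has.

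The sequences that bear on the findings are the 30 bases around the listed position of a site, from 14 bases upstream to 15 bases downstream, read from GRCm38 (mm10) on the strand of the gene. Capitals mark AATAAA or ATTAAA, the main polyA signals. Sites of the following set lay within 30 bases of an annotated transcript end, and are shown because they held most of the tags of these genes or, for Cacng4, because all its tags came from 1 replicate.
Cnih2, chr19:5092877-5092906, minus strand: tttgtgacaaaatatgAATAAActactgaa
Gria3, chrX:41678563-41678592, plus strand: gttttaatacattttgtaAATAAAattgta
Grik5, chr7:25009861-25009890, minus strand: tcccagtcctgttggAATAAAaaaaagaac
Grin1, chr2:25291186-25291215, minus strand: tattcagtggtgatgcctaaaggaatgtca
Grin2a, chr16:9567906-9567935, minus strand: ctAATAAAgataatttctgccacttgatat
Grin2b distal, chr6:135713234-135713263, minus strand: aAATAAAgaaacctaccacaaattatcagg
Grin2b proximal, chr6:135729814-135729843, minus strand: ctcaccctttaaaattttaaaaagaaaaaa
Grm5, chr7:88134872-88134901, plus strand: tttttggaagacATTAAAaagcaaactatg
Cacng7, chr7:3368189-3368218, plus strand: atatgtaaatatcAATAAActttatttcaa
Cacng4, chr11:107732357-107732386, minus strand: ttaatgaAATAAAaacatttttaaaatgtt

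Sites of the next set lay away from any annotated end of their gene, and are shown because they were seen in more than 1 replicate or, for Grik1, because it was the only site of the gene.
Gria2, chr3:80686039-80686068, minus strand, 3′UTR: ccttcagtcatacataaaatatgttcttat
Gria4, chr9:4477589-4477618, minus strand, intron: atatatgttcttgttaAATAAAattgtttg
Grm3, chr5:9474906-9474935, minus strand, past the gene: gaaaacAATAAAtttttcaaagtggacaaa
Grik1, chr16:87989192-87989221, minus strand, intron: tgttttatatgagaactgggtttaagttgg

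AATAAA or ATTAAA stood in this 30-base window at 30 of the 46 sites (65.2%), against 70.1% of all sites of the table. For sites within 100 bases of an annotated transcript end it was 17 of 19 (89.5%), and for sites elsewhere 13 of 27 (48.1%). All such sites of the table gave 82.0% and 54.2%. Only the strand of the gene was searched. In the 50 bases before the listed position alone, the signals stood at 12 sites (26.1%, against 27.7%), and in 50 bases on either side at 34 (73.9%, against 78.1%). The exceptions among the 19 were Grin1 and the proximal Grin2b site, at which these letters were also missing from the 50 bases on either side.

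The 4 libraries held 5947 to 16017 tags in the table, which by its name lists neuropil tags that overlap polyA peaks of Camk data, so that shares are of these tags and not of all tags sequenced. The glutamate receptor genes took 272 of the 34672 tags, and 154 of the 272 belonged to a single site, that of Cnih2. In replicates 1 to 4 the receptor genes had 135, 71, 38 and 28 tags, or 0.843%, 1.07%, 0.639% and 0.459% of the tags of the replicate (0.754% ± 0.265, SD, n = 4). Without Cnih2, a choice made after seeing the data, the shares were 0.262%, 0.212%, 0.622% and 0.410% (0.377% ± 0.184). Cnih2 therefore changed the order of the replicates, with replicates 1 and 2 highest when it was counted and lowest when it was not. The 95% Wilson interval of the share without Cnih2 was 0.452% to 0.856% in replicate 3, above those of replicate 1 (0.194% to 0.354%) and replicate 2 (0.126% to 0.355%), and that of replicate 4 overlapped all of them. These intervals cover counting error only, since tags copied by PCR are not independent molecules. They also depend on the library totals. The gene name Hdac8 had 4030 of the 16017 tags of replicate 1, against 1, 134 and 99 tags in replicates 2 to 4. This lowers every other share in replicate 1, and the intervals were not recomputed without it. In tissue pooled in this way, fewer cells with an mRNA and less of the mRNA per cell cannot be told apart.

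**Figure D1:**
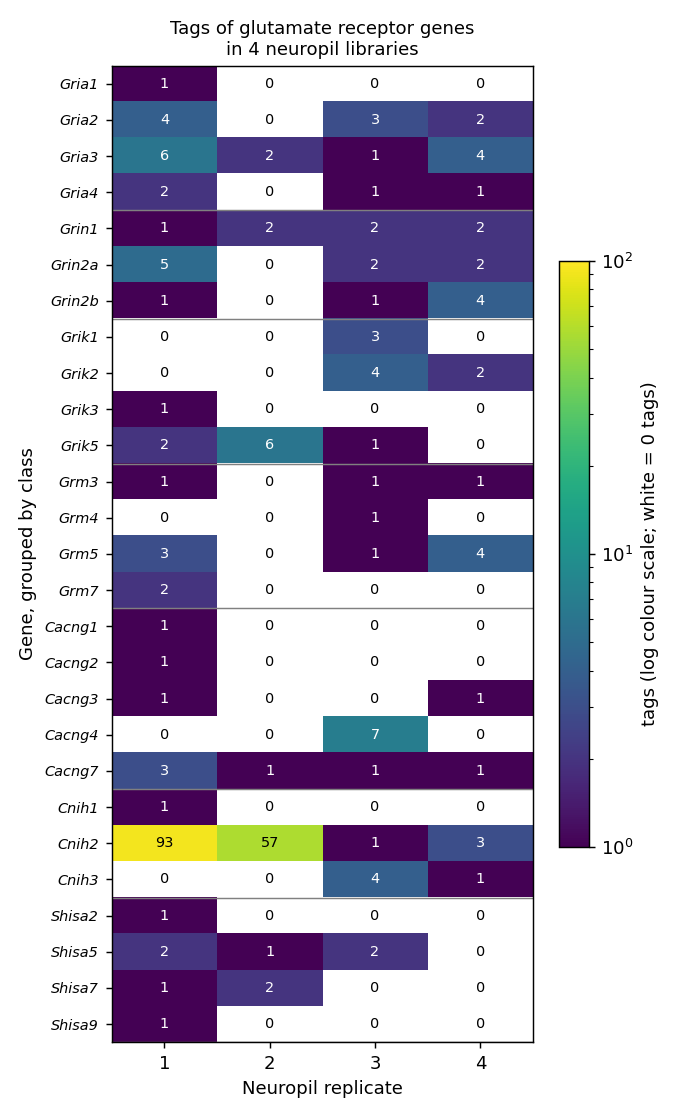
Tags of 27 of the 28 genes (rows, grouped by class) in each neuropil replicate (columns), with the count printed in each cell and colour on a log scale. Cnih2 had 93 and 57 tags in replicates 1 and 2 and 1 and 3 tags in replicates 3 and 4, while no other gene plotted passed 7 tags in a replicate.

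Among the cornichons, Cnih2, which binds AMPA receptors in hippocampal pyramidal neurons, had 93, 57, 1 and 3 tags in replicates 1 to 4. Its share was 0.581% (95% Wilson interval 0.474% to 0.711%) and 0.862% (0.666% to 1.12%) in replicates 1 and 2, and 0.0168% (0.00297% to 0.0952%) and 0.0492% (0.0167% to 0.145%) in replicates 3 and 4. The intervals of replicates 1 and 2 overlapped each other and lay wholly above those of replicates 3 and 4. Some genes of other families were split between the libraries in the same way. Among them were Kif5a with 162, 139, 12 and 12 tags and Jph4 with 46, 90, 2 and 4. Others were split differently, such as Gpihbp1 with 0, 0, 42 and 78 and Snap25 with 31, 3, 36 and 57. All were named after their values were seen, and genes with each kind of split were not counted. The mean Cnih2 share of 0.377% had an SD of 0.414, larger than the mean itself (n = 4), and without replicate 2 it fell to 0.216%. The Cnih2 site was the 6th highest of all sites in replicate 1 and the 7th in replicate 2, but the 939th in replicate 3 and the 268th in replicate 4. It made up 68.9%, 80.3%, 2.63% and 10.7% of the tags of the receptor genes. Its site, at position 5092892 of chromosome 19, lay 24 bases upstream of the annotated end of the gene (5092868 to 5098521, minus strand). The oligodendrocyte marker list, read as a measure of other cells in the tissue, took 0.281%, 0.545%, 0.185% and 0.131% of tags in replicates 1 to 4. It had tags for 6 of 8 genes, with Mbp at 20, 27, 6 and 2 tags and Pdgfra and Cspg4 at 0. The list was highest in replicate 2 and next in replicate 1, as Cnih2 was, and most of its tags in replicate 2 were from Mbp alone. Its part in the Cnih2 result was not tested.

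Differences between replicates were tested for all genes with at least 20 tags, by setting the tags of a gene in each replicate against the totals of the libraries and drawing chi-square values from multinomial samples with those totals. Of 211 genes tested, 147 (69.7%) had an adjusted p under 0.05, so most genes of this depth differed between libraries by more than the counting error of independent tags. The test takes every tag as a separate molecule, and how far PCR copies added to the spread was not tested. Cnih2 was the only receptor gene with enough tags, and it was among those called (exact multinomial test by Monte Carlo sampling, p = 1e-04, the lowest value possible here, Benjamini-Hochberg adjusted p = 0.000248). Its chi-square was 26.2 per degree of freedom against a median of 4.89 over the 211 genes, which placed it 26th. The call was kept without any 1 replicate (exact multinomial test by Monte Carlo sampling, adjusted p from 0.00019 to 0.000304). With the minimum lowered to 10 tags, 220 of 533 genes (41.3%) were called, and the second gene named as a receptor to enter, Gria3, was not (exact multinomial test by Monte Carlo sampling, adjusted p = 0.68, 0.685 per degree of freedom).

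**Figure D2:**
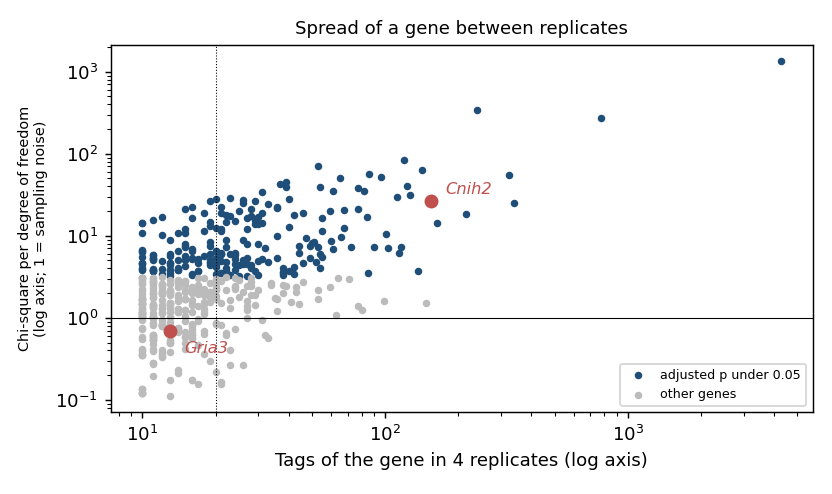
Chi-square per degree of freedom of the tags of a gene over 4 replicates (vertical, log axis) against the tags of the gene (horizontal, log axis), for the 533 genes with at least 10 tags; the dotted line marks 20 tags and blue points had an adjusted p under 0.05. Cnih2 stands at 26.2, and Gria3, at 0.685, lies below the value of 1 that sampling noise gives.

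The other cornichons had few tags. Cnih3, a close relative of Cnih2 that also binds AMPA receptors, had 0, 0, 4 and 1 tags, all at a site in an intron. Cnih1, known for its part in export from the endoplasmic reticulum, had a single tag in replicate 1, placed 131 bases upstream of its annotated end. Cnih2 and Cnih3 were thus counted in opposite pairs of replicates, with all but 4 of the Cnih2 tags in replicates 1 and 2 and all Cnih3 tags in replicates 3 and 4. At 5 tags, the difference between replicates was not tested for Cnih3.

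All 4 AMPA subunit genes were detected, with 27 tags together. They took 0.0812%, 0.0303%, 0.0841% and 0.115% of tags (0.0776% ± 0.035, SD, n = 4), so the class was seen in every replicate. Gria3, the subunit that pairs mostly with Gria2 in adult pyramidal neurons, had 6, 2, 1 and 4 tags, the most after Cnih2. Its share was 0.0375% ± 0.0206, and its only site lay 21 bases upstream of an annotated end and gave a 3′UTR of 2565 bases.

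Gria2, whose subunit keeps AMPA receptors impermeable to calcium, had 4, 0, 3 and 2 tags at 4 sites. The sites would end 3′UTRs of 983, 2664, 3668 and 7066 bases, all within the annotated 3′UTR. The 2664-base site had 2, 0, 2 and 2 tags and the others 1 tag each. Replicates 1, 3 and 4 therefore shared this end, which was not an annotated one and lay 1741 bases past the nearest. Gria4 had 2, 0, 1 and 1 tags at 2 sites, both in introns, and the one with 1, 0, 1 and 1 tags lay 659 bases past the end of a short annotated transcript. Gria1, the subunit inserted into synapses during potentiation, had a single tag, in replicate 1, at 253 bases upstream of an annotated end. At 1 tag its level could not be measured, because a count of 0 in replicates 2 to 4 allows a share of up to 0.0454%, 0.0504% and 0.0492%.

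The NMDA class had 22 tags, or 0.0437%, 0.0303%, 0.0841% and 0.131% of tags in replicates 1 to 4 (0.0723% ± 0.0454, SD, n = 4). Grin1, the subunit that every NMDA receptor needs, had 1, 2, 2 and 2 tags at 1 site, 20 bases upstream of its annotated end. It was 1 of 4 receptor genes with tags in all replicates, the others being Cnih2, Gria3 and Cacng7. Grin2a, the subunit that prevails at mature synapses, had 5, 0, 2 and 2 tags. Of these, 4, 0, 1 and 2 fell on the last annotated end, which closes a 3′UTR of 9906 bases.

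Grin2b, the subunit typical of young synapses, had 1, 0, 1 and 4 tags at 3 sites. All 3 tags of its distal end came from replicate 4, and that end closes a 3′UTR of 18849 bases, the longest measured among these genes. The proximal end, at 2269 bases, had 1, 0, 0 and 1 tags. It was followed by a run of 12 genomic A bases, with A making up 78% of the next 50 bases. The third site was an intron site with 1 tag in replicate 3, followed by a run of 23 A bases. Whether tags at such A-rich places come from a polyA tail was not tested.

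The kainate class had 19 tags, with shares of 0.0187%, 0.0908%, 0.135% and 0.0328% (0.0692% ± 0.0536). Grik5, the high-affinity subunit GluK5, had 2, 6, 1 and 0 tags, all 27 bases upstream of its annotated end with a 3′UTR of 493 bases. Most of its tags were in replicate 2, where Cnih2 was also highest. Grik2, a pore-forming kainate subunit, carried the widest spread of sites. It had 0, 0, 4 and 2 tags at 5 sites, of which 2 tags lay 28 bases upstream of a short annotated transcript's end. A pair of further Grik2 sites, with 1 tag each in replicate 4, lay 3.25 and 2.85 Mb past the end of the gene between genes, and the name in the table does not place that RNA in Grik2. Grik1 had 3 tags and Grik3 had 1 tag. The Grik1 tags were all in replicate 3 at an intron site, and the Grik3 tag was in replicate 1 at the end of a 6059-base 3′UTR.

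The 4 metabotropic genes had 14 tags, with 6, 0, 3 and 5 in replicates 1 to 4. Grm5, a postsynaptic receptor coupled to Gq, had 3, 0, 1 and 4 tags at 3 sites within 761 bases. Of these, 3, 0, 0 and 3 fell on the last annotated end, with a 3′UTR of 4017 bases. Grm3, a receptor abundant in astrocytes, had 1, 0, 1 and 1 tags. A Grm3 site with tags in replicates 1 and 4 lay 10.6 kb past the annotated gene, and the other, in an intron, preceded a run of 25 A bases. Grm7, found at presynaptic active zones, had 2 tags in replicate 1, and Grm4 had 1 tag in replicate 3. Not 1 of the metabotropic genes had a tag in replicate 2, which held 6609 tags.

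The Cacng class had 17 tags, at 0.0375%, 0.0151%, 0.135% and 0.0328% of the replicates (0.055% ± 0.0539), and the mean was 0.0285% without replicate 3. Cacng7, a type II TARP, had 3, 1, 1 and 1 tags, and its share of 0.0168% ± 0.00149 varied least among the 17 genes seen in more than 1 replicate. With 1 to 3 tags per replicate, its Wilson intervals were far wider than this spread, from 0.00267% to 0.0857% in replicate 2. Cacng4, also a TARP, had 0, 0, 7 and 0 tags, all 15 bases upstream of its annotated end. Almost all of the class in replicate 3 was thus Cacng4. Cacng3 had 1, 0, 0 and 1 tags, and Cacng2 (stargazin), the TARP for which AMPA receptor traffic was worked out, had 1 tag. That tag lay 2991 bases upstream of the gene end in a stretch where 84% of the next 50 bases were A. The Cacng1 tag lay 107 kb past its gene.

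The Shisa class had 10 tags. Shisa7 had 1, 2, 0 and 0 tags at its annotated end, and Shisa9 (CKAMP44), which slows the recovery of AMPA receptors from desensitization, had 1 tag in replicate 1 at its end. Shisa5, a protein linked to apoptosis, had 2, 1, 2 and 0 tags, of which 4 fell on an annotated end. The tag named Shisa2 lay 618 kb past that gene. The AMPA, NMDA, kainate, Cacng and Cnih classes had tags in every replicate. The cornichons ranked highest in replicates 1 and 2, whereas kainate and Cacng genes shared the top place in replicate 3 with 8 tags each, and NMDA genes led in replicate 4 with 8. No class other than the cornichons passed 13 tags in a replicate, and the order among the others was not tested.

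Sites of receptor genes were seen again in other replicates about as often as other sites. Tags came from 1 replicate at 31 of the 46, from 2 at 6, from 3 at 5, and from all 4 at the Cnih2, Gria3, Grin1 and Cacng7 sites. More than 1 replicate had tags at 15 sites (32.6%), against 34.2% for the table. The 15 belonged to 15 genes, each with a single such site, while 17 genes had tags in more than 1 replicate when their sites were added. A single tag was all that 26 sites (56.5%) had, against 57.2% over the table. The median was 3.5 tags for a receptor gene and 2 tags for a gene of the table.

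Of the receptor sites, 19 (41.3%) lay within 100 bases of an annotated transcript end of the named gene, against 57.1% of the 9170 sites that could be compared. All 19 lay upstream of that end, by 3 to 28 bases with a median of 21. Of the 19, 11 (57.9%) were seen in more than 1 replicate, against 42.3% of all sites at annotated ends. Elsewhere, 4 of 27 sites (14.8%) were seen more than once, against 23.5% in the table. Those 4 were the Cnih3 intron site and the Gria2, Gria4 and Grm3 sites whose sequences are given above.

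**Figure D3:**
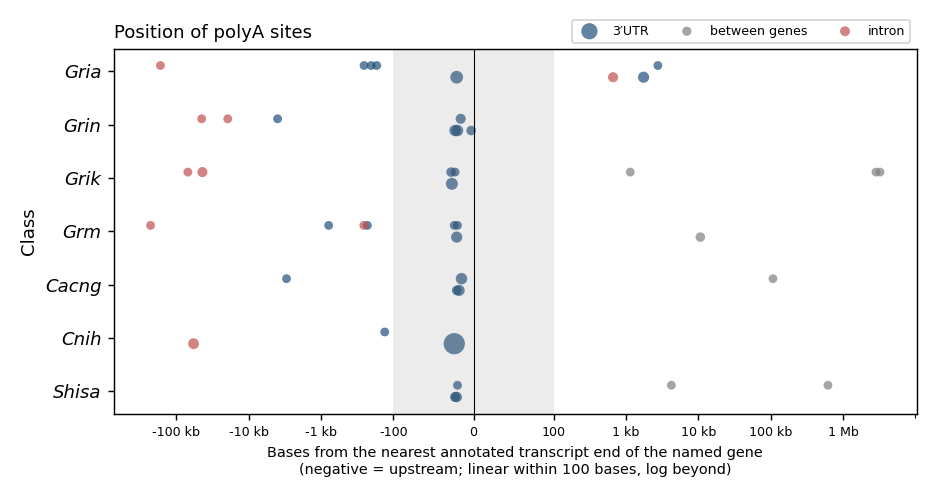
Distance of 44 of the 46 sites from the nearest annotated transcript end of its named gene (horizontal, negative upstream, linear within 100 bases and log beyond), by class; larger points have more tags, colour gives the annotation, and within a class the lower points were seen in more than 1 replicate. The 18 sites plotted in the grey band all lie 3 to 28 bases upstream of an end.

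The share of tags at sites away from annotated ends differed between replicates. The sites at annotated ends other than Cnih2 (18 sites in 17 genes) held 27, 14, 18 and 17 tags, or 0.169%, 0.212%, 0.303% and 0.279% of the replicates (0.24% ± 0.0614, SD, n = 4), and their intervals all overlapped. The 27 sites elsewhere held 15, 0, 19 and 8 tags, or 0.0937%, 0%, 0.319% and 0.131% (0.136% ± 0.134). In replicate 2 all 71 tags of receptor genes lay at annotated ends, and the 0 elsewhere allows a share of up to 0.0454%. Replicate 3 was the highest, with an interval of 0.205% to 0.498% that lay above those of replicates 1 and 2 and overlapped that of replicate 4 (0.0665% to 0.259%). As a percentage of receptor tags other than Cnih2, those at annotated ends made up 64.3%, 100%, 48.6% and 68.0%, lowest in replicate 3. Over all sites of the table they made up 48.2%, 65.9%, 56.7% and 62.5%, lowest in replicate 1. No abundant site was left out of the table shares, as Cnih2 was from the receptor shares. The name Hdac8 alone had 4030, 1, 134 and 99 tags in replicates 1 to 4. Whether replicate 1 would stay lowest without it was not tested.

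**Figure D4:**
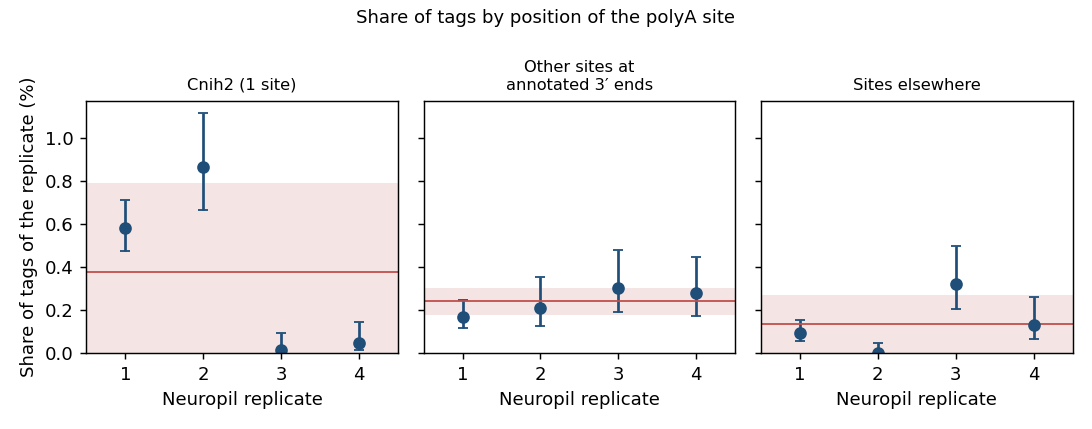
Share of the tags of each replicate (vertical, percent, same scale in the 3 panels) at the Cnih2 site, at the 18 other sites at annotated ends and at the 27 sites elsewhere; bars are 95% Wilson intervals (for 0 tags, up to the share of 3 tags), the line is the mean and the band the mean ± SD over replicates. The middle panel varies from 0.169% to 0.303%, while Cnih2 varies from 0.0168% to 0.862%.

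By annotation, 29 sites (63.0%) lay in a 3′UTR, 10 (21.7%) in an intron and 7 (15.2%) between genes, against 76.4%, 5.29% and 15.3% of all sites. Introns thus held more of the sites than in the table. They held 6.99% of receptor tags against 15.4% of all tags, a comparison that turned with Cnih2 and the Bc1-like sites (places that resemble the abundant short RNA Bc1). Intron sites belonged to 9 genes, including Cnih3, Gria4, Grik1, Grin2a, Grin2b and Grm3. These are long genes, with a median span of 428 kb against 62.5 kb for the other receptor genes and 25.3 kb for 7096 genes of the table. The intron sites held 3, 0, 14 and 2 tags, so that replicate 3 gave 14 of 19. By replicate this was 2.22%, 0%, 36.8% and 7.14% of receptor tags, or 7.14%, 0%, 37.8% and 8% without Cnih2. Without Bc1-like sites, introns took 1.67%, 1.54%, 6.11% and 3.57% of all tags in replicates 1 to 4, less than of receptor tags in replicates 1, 3 and 4, and replicate 3 was the highest there too.

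The 3′UTR share of receptor tags was 94.8%, 100%, 60.5% and 82.1% in replicates 1 to 4, lowest in replicate 3. Without Cnih2 it was 83.3%, 100%, 59.5% and 80.0%, and 77.1% of the 118 tags together. With Cnih2 it was 90.1% of the 272 tags. Of all tags of the table, 70.2% lay in 3′UTRs, or 85.6% without Bc1-like sites. By replicate the table, with Bc1-like sites kept, gave 60.9%, 81.0%, 73.2% and 80.1%. Receptor genes with Cnih2 stood below it in replicate 3 and above it in the others. Without Cnih2 they stood above it in replicates 1 and 2 only, with 80.0% against 80.1% in replicate 4.

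The 3′UTRs that the sites close were long. Measured from the stop codon along the exons, the 29 sites in 3′UTRs gave 295 to 18849 bases with a median of 2408, against 1036 over 6502 sites of the table. For sites seen in more than 1 replicate the medians were 1762 (12 sites) and 1083 (2561 sites). Cnih2, with 578 bases, and Grik5, with 493, were on the short side. These lengths follow the annotated exons and were not measured on the RNA.

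Away from annotated ends the genome was often A-rich just downstream. A run of at least 8 A bases lay in the next 50 bases at 11 of 27 sites elsewhere (40.7%), against 32.0% of such sites in the table. At annotated ends it was 3 of 19 (15.8%), against 5.80%. The median A content of the next 50 bases was 44% elsewhere and 26% at annotated ends, against 36% and 28% for the table. GC content over 100 bases on either side had medians of 33.3% elsewhere and 42.3% at annotated ends, against 36.3% and 38.3%.

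No receptor gene had a pair of sites that were both recovered from several replicates, so distal and proximal ends could not be compared on that footing, and the test of site usage had no receptor gene with enough tags. Over all listed sites 10 genes had more than 1. The most distal site had more tags in 5 of them, the most proximal in 2, and 3 had equal counts. For Grin2a it was 7 distal against 1 proximal tag and for Grm5 6 against 1, whereas in Shisa5 the proximal site had 4 tags and the distal 1. Several of these pairs joined an intron or intergenic site to a 3′UTR, and the 26 distal and 14 proximal tags were too few to test any of the genes.

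A pair of sites with other names lay within further receptor genes. A site named Mir592 lay in an intron of Grm8, a presynaptic metabotropic receptor, with 0, 0, 3 and 9 tags, more than any gene of the Grm class had in the table. Its position does not show that the RNA came from Grm8. The Mir592 site was called as differing between replicates at the 10-tag minimum (exact multinomial test by Monte Carlo sampling, adjusted p = 0.000508), and had neither polyA signal within 50 bases on either side. A site named Mir346 lay in the 3′UTR of Grid1, with 1, 1, 0 and 0 tags. With annotated names in place of listed ones the receptor genes took 0.786% ± 0.23 of tags.

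Partners of the receptors outside these families were counted for comparison. Of 27 genes for further auxiliary, trafficking and anchoring proteins, 18 had tags, 13 of them in more than 1 replicate. Together they had 199 tags, at 0.443%, 0.605%, 0.488% and 0.967% of the replicates. Olfm1, a secreted protein found in AMPA receptor complexes, had 24, 13, 10 and 16 tags (0.194% ± 0.0493). The neuronal pentraxin Nptx1 had 7, 10, 4 and 6 tags, and the pentraxin receptor Nptxr, which clusters AMPA receptors, had 12, 2, 1 and 15. Of the 3 partners with at least 20 tags only Nptxr was called as differing between replicates (exact multinomial test by Monte Carlo sampling, adjusted p = 0.000248, against 0.389 for Olfm1 and 0.0776 for Nptx1), and its tags were mostly in replicates 1 and 4, of which replicate 1 was the deepest library. Neurl1a, Homer2 and Nsf had 17, 12 and 10 tags, and all others had 7 or fewer.

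Beside the oligodendrocyte list given with Cnih2, which in replicate 2 stood above the pyramidal neuron list, 4 further marker lists were counted. The pyramidal neuron list (8 of 10 genes with tags) took 0.506%, 0.272%, 0.387% and 0.705% of replicates 1 to 4, lowest in replicate 2 where Cnih2 was highest, with no tag under the names Camk2a and Slc17a7. The astrocyte list (8 of 8) took 0.287%, 0.151%, 0.168% and 0.0984%, the interneuron list (5 of 10, none for Gad2 or Slc32a1) 0.0303% to 0.262%, and the microglia list (2 of 7, none for Cx3cr1 or P2ry12) at most 0.0187%.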

How the data were processed

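Counts of cTag-PAPERCLIP tags per 1-base polyA site were used as the authors deposited them, as raw counts without normalization for 4 neuropil replicates. Per the study's methods, tags were mapped to the genome and clustered into sites with CTK, and the submitters' processing notes name cutadapt, Novoalign and mm10. How duplicate and multiply mapped tags were handled was not given in the sources used here, so counts at repeats may be misplaced. Each replicate was a pool of several mice, and p-values set the spread between these libraries against counting error only. By its name the table holds tags that overlap Camk peaks, so totals and counts of 0 refer to those tags only. For whole-cell PAPERCLIP peaks, the study's methods set a minimum of tags and of the share of the gene's tags. Whether the Camk peaks of the table are those peaks was not stated in the sources used here. The totals were 16017, 6609, 5947 and 6099 tags.

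Sites were placed on GRCm38 and annotated on their strand with GENCODE vM21, where a 3′UTR took precedence over any other feature and an intron came last. A share is the percentage of the total of a replicate. A Bc1-like site held at least 10 of the 12-base words from the first 74 bases of Bc1 within 75 bases on either side. A count of 0 was taken to allow up to 3 tags. The test of differences between replicates was the exact multinomial test on chi-square in its Monte Carlo form, with 10000 multinomial samples per gene and every tag taken as independent, with Benjamini-Hochberg adjustment over all genes tested, and was tested on simulated data with known changes. Python 3.11.15, pandas 2.3.3, numpy 2.4.6, scipy 1.17.1 and pysam 0.24.0 were used.

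The members, lists and tests were chosen with earlier results of these data known. Every receptor gene with tags in more than 1 replicate was to be named, with values in every replicate for genes with at least 10 tags. Values of the genes with fewer tags were added after they were seen. The values of 1 gene and the sequence of 1 further site are not reported here, though they count in the totals. Alternatives were other totals, site filters, tag minimums, gene names and leaving out each replicate.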

Additional observations from a re-analysis of the deposited data

Results flagged for a closer look

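Of 27 shares with a value in each replicate (the receptor genes together, their classes, the single genes seen in more than 1 replicate and the 3′UTR share), 2 had a replicate whose gap to its nearest neighbour took up more of the range than Dixon's 95% critical value for 4 samples, where chance gives 1.35. Grin2a had no tag in replicate 2 and shares between 0.0312% and 0.0336% in the others, with a gap of 0.928 of the range. Grin1 had 1 tag in replicate 1 and 2 in each of the others, with a gap of 0.877 of the range. Both rest on differences of a few tags.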

How the results depend on the processing

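No paired analysis was possible because the samples form 1 group. Of 94 recomputed values of the main results, 85 stayed within the spread between replicates or within 1.5 times the count. So did 109 of 111 for single genes (Cacng7 moved to 0.0198% without Bc1-like sites and to 0.0221% at sites seen in more than 1 replicate). This is a loose measure where the spread was as large as the mean. Grik2 (0.0250%, SD 0.0321) counted as unmoved at 0% for sites seen in more than 1 replicate. Counts that were 0 in every setting also entered as unmoved. The 15 sites seen in more than 1 replicate fell to 4 when all 4 replicates were required and to 7 with at least 2 tags per replicate, and were 10 to 14 without any 1 replicate. The share of receptor tags was 0.377% without Cnih2, chosen after seeing the data, and 0.647% to 0.852% without any 1 replicate. Leaving out 1 replicate took the Cnih2 share from 0.377% to 0.216% at the lowest and the Cnih class to 0.246% (both without replicate 2), and the Cacng class to 0.0285% (without replicate 3). At sites seen in more than 1 replicate the Cacng and Grik classes took 0.0293% and 0.0399%. The share of sites with a polyA signal rose from 26.1% to 73.9% when the 50 bases on either side were searched. Of the genes tested, 48 of 56 were called as differing between replicates with at least 50 tags, and 82 to 111 when 1 replicate was left out (85 of 112 without replicate 1, 82 of 137 without replicate 2 and 97 of 145 without replicate 4). Pairs of distal and proximal sites rose from 0 to 10 genes when all listed sites were counted. The site usage test was not run, since 0 receptor genes qualified under any setting. With 118 tags outside Cnih2, no receptor gene but Cnih2 had enough tags for the main test.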
